A study of Mus musculus with 4 samples.

Results

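Semaphorins, plexins and neuropilins form a ligand and receptor family of 31 genes in these data, 20 for semaphorins, 9 for plexins and 2 for neuropilins. They were taken by symbol, by a rule that uses no expression value, as all semaphorin genes of classes 3 to 7, all plexin genes and both neuropilin genes among the 22096 gene symbols listed. The cells were palatal mesenchyme from 4 mouse embryos at E13.5, the stage at which the palatal shelves grow beside the tongue. All 4 embryos carried 1 *Osr2RFP* allele, a knock-in that makes *Osr2*-expressing cells red fluorescent, and the cells came from dissected, trypsin-dissociated palatal shelves and were sorted on that fluorescence. Of these embryos 1 was an Osr2RFP/+ control with intact *Foxf2*, 1 was a Foxf2+/- control, and 2 were Foxf2-/- embryos. The embryos, of mixed background, came from matings of Foxf2+/- females with males that carried both Foxf2+/- and the reporter, *Foxf2* was missing from the whole embryo and not from the palate alone, and reporter-negative palatal cells were not sampled. Each embryo gave 1 library, so the Osr2RFP/+ and Foxf2+/- groups had no replicate. The p-values below rest only on these 4 embryos, with each gene's spread drawn toward that of genes of like level. The spread of the controls includes any difference between their genotypes.

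Semaphorins are secreted or membrane-bound proteins that steer migrating cells and growing axons, mostly by repulsion and by collapse of the cell's leading edge. Plexins are their main receptors, and a GAP domain inside the cell lets them switch off small GTPases of the Rap and Ras families. Neuropilins bind most secreted class 3 semaphorins outside the cell and pass the signal to A-type plexins, and they also bind vascular endothelial growth factors. In the embryonic head the family is best known for guiding nerves, vessels and neural crest cells.

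Between the 2 Foxf2-/- embryos and the 2 controls, the log2 fold changes of semaphorins, plexins and neuropilins had a median size of 0.064, against 0.128 over all genes tested, and ran from -0.50 for *Sema4a* to 0.70 for *Sema5b*. These median sizes depend on the scaling of the libraries. Rescaling to a common median ratio shifted the log2 fold changes by a median of 0.079, more than 0.064. The family is therefore not shown to have moved less than other genes. Expression is given in FPKM, sequenced fragments scaled to transcript length and library size, summed over the transcript entries of a gene, and 25 of the 31 genes had a mean of at least 1 FPKM over the 4 embryos and were tested. None of these 25 genes differed by more than 1.5-fold in 1 direction from each of the controls, a criterion without a test that 1.37% of all 11128 genes tested met, 79 genes higher and 74 lower in the Foxf2-/- embryos. With the libraries rescaled to a common median ratio, the split over all genes was 91 higher and 49 lower, and *Sema5b* met the criterion among the 25. Which of the 25 met it also varied as single embryos were left out. Without 1 of the controls, it is a comparison with the other control alone. By limma, fitted to log2(FPKM + 0.1) over all 11128 genes, none of the 25 passed an adjusted p of 0.05 with a 1.5-fold change, against 0.0629% of all genes (0.0539% higher and 0.00899% lower), and 4 had an unadjusted p under 0.05, against 13.1% of all genes, 2.74% higher and 10.4% lower. The 4 were *Sema5b*, *Sema6d* and *Plxna4*, which were higher in the Foxf2-/- embryos, and *Sema4a*, which was lower. The median log2 fold change was -0.0018 over the 25 genes and -0.081 over all genes tested.

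The sequences that distinguish the transcripts and starts discussed here are shown first. *Nrp2* and *Sema6d* are each listed as several transcript entries that differ by short alternative stretches of coding sequence, so the gene's level can be divided among them. The stretches are shown on the mm9 genome, on the plus strand, 5′ to 3′, with the alternative bases in capitals and the rest of the same exon, where there is any, in lower case. In *Nrp2*, a 15-base stretch at chr1:62832876-62832890 lies at the end of a 36-base exon, and a 51-base exon lies at chr1:62859108-62859158. In *Sema6d*, a 39-base stretch at chr2:124485980-124486018 opens a 101-base exon, and alternative exons of 57 bases at chr2:124486441-124486497 and of 168 bases at chr2:124487940-124488107 follow.
Nrp2, 15-base stretch: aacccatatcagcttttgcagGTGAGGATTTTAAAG
Nrp2, 51-base exon: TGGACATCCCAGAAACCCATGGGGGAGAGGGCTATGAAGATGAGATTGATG
Sema6d, 39-base stretch: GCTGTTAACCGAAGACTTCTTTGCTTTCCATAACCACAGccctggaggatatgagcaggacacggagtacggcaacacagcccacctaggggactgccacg
Sema6d, 57-base exon: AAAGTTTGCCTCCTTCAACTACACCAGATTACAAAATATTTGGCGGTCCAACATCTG
Sema6d, 168-base exon: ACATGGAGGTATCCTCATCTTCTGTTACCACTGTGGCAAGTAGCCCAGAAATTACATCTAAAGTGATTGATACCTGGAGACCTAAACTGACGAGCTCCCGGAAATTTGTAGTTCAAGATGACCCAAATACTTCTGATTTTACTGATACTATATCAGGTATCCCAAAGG

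The bases before 3 transcription starts are shown because *Sema5b* had the largest difference between the groups and *Plxnb2* is listed from 2 starts whose entries had unequal levels. They are RefSeq sequences on GRCm38.p6, 250 bases up to the base before the start, read along the gene's own strand, with every CG dinucleotide in capitals. The *Sema5b* window at chr16:35541112-35541361 on the plus strand has 19 CG dinucleotides and a GC content of 72.0%. The start of *Plxnb2* nearer to the coding sequence, with its window at chr15:89173952-89174201 on the minus strand, has 13 and 63.6%. The farther start, at chr15:89180789-89181038 on the same strand, has 20 and 69.2%. Over the promoter windows of all genes the median count in these bases was 6. These windows are from a later build than the expression tables, and their starts were not matched base by base to those of the entries.
Sema5b: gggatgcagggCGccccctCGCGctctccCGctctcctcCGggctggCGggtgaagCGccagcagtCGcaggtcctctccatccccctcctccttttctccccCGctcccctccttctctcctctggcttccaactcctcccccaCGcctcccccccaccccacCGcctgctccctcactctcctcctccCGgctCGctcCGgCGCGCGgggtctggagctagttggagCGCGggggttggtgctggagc
Plxnb2, nearer start: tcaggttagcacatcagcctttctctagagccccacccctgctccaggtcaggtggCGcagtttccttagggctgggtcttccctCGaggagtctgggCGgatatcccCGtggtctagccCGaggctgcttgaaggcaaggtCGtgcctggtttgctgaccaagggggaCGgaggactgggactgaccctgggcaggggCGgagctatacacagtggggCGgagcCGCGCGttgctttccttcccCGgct
Plxnb2, farther start: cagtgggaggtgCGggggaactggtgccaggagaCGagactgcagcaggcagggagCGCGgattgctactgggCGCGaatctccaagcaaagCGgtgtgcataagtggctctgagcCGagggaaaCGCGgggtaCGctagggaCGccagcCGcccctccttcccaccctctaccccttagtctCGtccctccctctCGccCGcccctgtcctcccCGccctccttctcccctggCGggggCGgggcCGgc

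Promoter windows of 300 bases, 250 before and 50 after the start, were matched by symbol for 26 of the 31 genes, with 37 windows in all. The genes without a window were *Plxna1*, *Plxna4*, *Sema3b*, *Sema3f* and *Sema6a*. The letters GTAAACA or, on the other strand, TGTTTAC, the core that many forkhead proteins bind, were found in 0 of the 37 windows and in 3.65% of all 32851 windows. The shorter letters TAAACA or TGTTTA, which the longer motif contains, were found in 1 of the 37, that of *Sema4d*, and in 13.4% of all windows.

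*Foxf2* itself, the gene removed, was listed at 85.4 FPKM in the Osr2RFP/+ control, 45.1 FPKM in the Foxf2+/- control, and 1.41 and 2.28 FPKM in the Foxf2-/- embryos. The levels followed the genotype labels. Summed over 10 markers of palatal mesenchyme, among them *Osr2*, *Prrx1* and *Pdgfra*, the level was 1308 to 1497 FPKM in the controls and 1266 to 1427 FPKM in the Foxf2-/- embryos. The collagen genes *Col1a1* and *Col1a2* and the gene *Barx1* had the highest levels of the 10 in every embryo and weigh most in this sum. Of these markers, *Shox2*, *Twist1*, *Prrx1* and *Pdgfra* lay below both controls in both Foxf2-/- embryos, as did 35.8% of all genes, and the others overlapped. *Shox2* was at 114 and 73.4 FPKM in the Osr2RFP/+ and Foxf2+/- controls and at 47.7 and 63.7 FPKM in Foxf2-/- embryos. The 7 endothelial markers summed to 0.480 to 0.936 FPKM in the controls and 1.02 to 1.87 FPKM in the Foxf2-/- embryos, each below 1 FPKM in every embryo. Markers of red blood cells summed to 18.8 FPKM in the Osr2RFP/+ control, 72.6 in the Foxf2+/- control, and 68.3 and 161 in the Foxf2-/- embryos. Sums for epithelium were 5.27 to 6.38 FPKM in the controls and 6.13 to 8.08 FPKM in the Foxf2-/- embryos, and for neurons and Schwann cells 3.64 to 7.51 and 6.11 to 6.52 FPKM. Those for macrophages and other leukocytes were 11.4 to 16.4 and 12.7 to 16.7 FPKM, and for muscle 0.302 to 0.341 and 0.104 to 0.269 FPKM. The part of any of these cells in the values below was not tested, and in sorted bulk RNA fewer cells that express a gene and less RNA per cell cannot be told apart.

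The family was led by a few members. *Sema5a*, a membrane semaphorin with thrombospondin repeats, had the highest mean level, 39.6 FPKM, followed by the receptor *Plxnb2* with 32.1 and the membrane semaphorin *Sema6a* with 27.4. The range over the embryos of each of these 3 lay apart from that of the next gene in order. *Plxna1*, *Nrp2*, *Sema3a*, *Nrp1*, *Sema6d* and *Sema3f* followed, with mean levels from 17.6 down to 13.1 FPKM and ranges over the embryos that overlapped between neighbours. From *Sema5b*, with a mean of 8.20 FPKM, down to *Plxna4*, with 1.33, all neighbours in order overlapped as well. Semaphorins summed to 148 to 164 FPKM per embryo, plexins to 67.0 to 76.1 and neuropilins to 29.5 to 37.2. *Sema5a* and *Sema6a* together made up 41.3% to 44.6% of the semaphorin sum.

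The 6 genes under the 1 FPKM mean were *Sema3b*, *Sema3c*, *Sema3g*, *Sema6b*, *Sema7a* and *Plxnb3*. *Sema3c*, a secreted semaphorin needed for cardiac outflow tract development, was listed between 0.586 and 0.765 FPKM. *Sema7a*, which is anchored to the membrane by a lipid and signals through *Plxnc1* and integrins, ranged from 0.215 FPKM in the Foxf2+/- control to 0.468 in the second Foxf2-/- embryo, with both controls and Foxf2-/- embryos interleaved. *Sema6b*, a ligand of *Plxna4*, was listed at 0.230 and 0.256 FPKM in the Osr2RFP/+ and Foxf2+/- controls and at 0.308 and 0.364 FPKM in Foxf2-/- embryos, without overlap. *Plxnb3*, a receptor for *Sema5a*, was at 0.0219 and 0.0192 FPKM in control and 0.0270 and 0.0428 FPKM in Foxf2-/- embryos, also without overlap. *Sema3b* ranged from 0.280 to 0.396 FPKM, and *Sema3g* stayed below 0.1 FPKM in each embryo. At such levels a fold change was not computed.

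**Figure D1:**
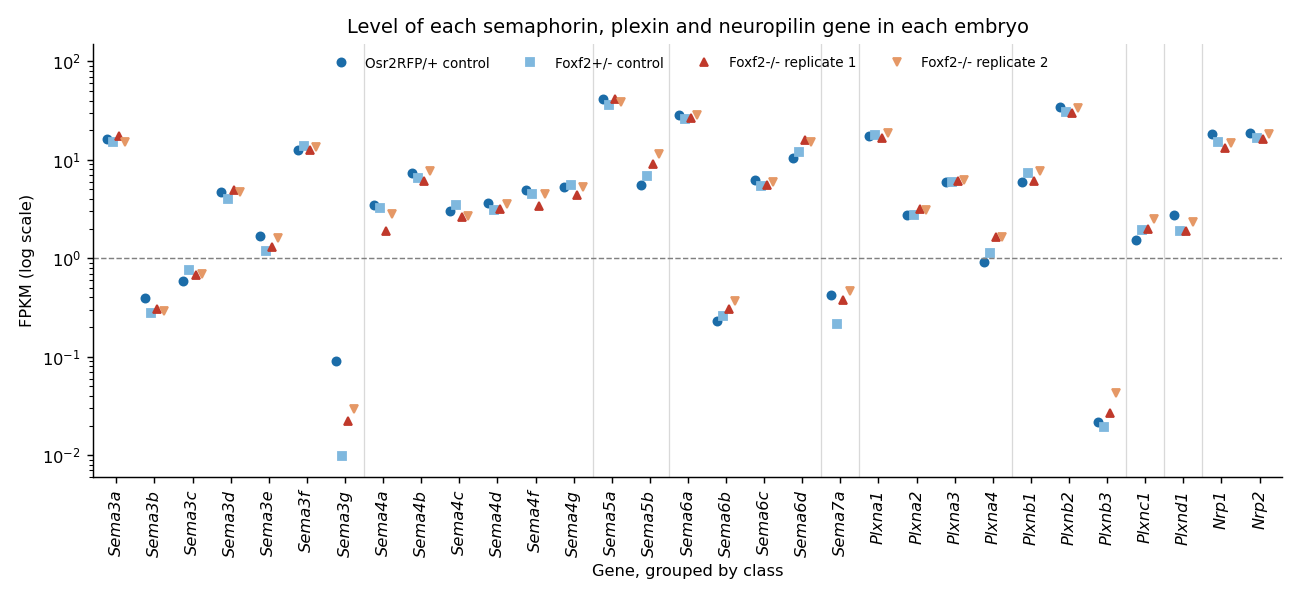
FPKM of the 31 genes (logarithmic vertical axis) in each of the 4 embryos, 1 point per embryo, with genes grouped by class along the horizontal axis. The dashed line marks 1 FPKM, the mean level a gene needed to be tested, and the points of most genes lie close together, with *Sema5a*, *Plxnb2* and *Sema6a* at the top.

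The secreted class 3 semaphorins, the ligands that act through neuropilins, overlapped between the groups, except for *Sema3d*. *Sema3a*, the classic repellent for sensory and motor axons and a ligand of *Nrp1*, was listed at 16.1 FPKM in the Osr2RFP/+ control, 15.2 in the Foxf2+/- control, and 17.6 and 15.2 in the Foxf2-/- embryos. The groups overlapped, and the log2 fold change of Foxf2-/- against control was 0.06 with an SE of 0.106 (limma adjusted p = 0.836, n = 2 and 2). *Sema3f*, which acts mainly through *Nrp2*, had 12.7 and 13.9 FPKM in the Osr2RFP/+ and Foxf2+/- controls and 12.5 and 13.5 in the Foxf2-/- embryos, again with overlap. *Sema3d* was listed at 4.73 and 3.99 FPKM in the Osr2RFP/+ and Foxf2+/- controls and at 4.92 and 4.75 FPKM in Foxf2-/- embryos, so both Foxf2-/- values were the higher ones, by 1.02-fold over the Osr2RFP/+ control and 1.21-fold over the Foxf2+/- control. *Sema3e*, which binds *Plxnd1* without a neuropilin, was listed at 1.67 and 1.19 FPKM in the Osr2RFP/+ and Foxf2+/- controls and at 1.30 and 1.59 FPKM in Foxf2-/- embryos, inside the control range.

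All 6 class 4 semaphorins, membrane ligands of B-type and D-type plexins, had fitted values below 0, as did 7824 of all 11128 genes tested, with a median log2 fold change of -0.21 and none called. With the libraries rescaled to a common median ratio, *Sema4b* and *Sema4d* turned above 0. *Sema4a*, known from immune cells and the retina, had 3.47 FPKM in the Osr2RFP/+ control, 3.21 in the Foxf2+/- control, and 1.90 and 2.84 in the Foxf2-/- embryos. Both Foxf2-/- values were below both controls, and the first embryo lay farther below them than the second did. The log2 fold change was -0.50 with an SE of 0.200 (limma, unadjusted p = 0.0388, adjusted p = 0.355, n = 2 and 2), and the mean of the Foxf2-/- embryos was 0.680 times the Osr2RFP/+ control and 0.734 times the Foxf2+/- control. Without the second Foxf2-/- embryo, *Sema4a* alone of the 25 genes was more than 1.5-fold below both controls, with a log2 fold change of -0.78, and without the first embryo the value was -0.22.

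*Sema4b*, the most abundant of the class, had 7.42 and 6.54 FPKM in the Osr2RFP/+ and Foxf2+/- controls and 6.04 and 7.79 in the Foxf2-/- embryos, which lay on either side of both controls. Its log2 fold change was -0.02 with an SE of 0.145 (limma adjusted p = 0.963). *Sema4c*, a ligand of *Plxnb2*, was listed at 3.01 and 3.44 FPKM in the Osr2RFP/+ and Foxf2+/- controls and at 2.64 and 2.68 FPKM in Foxf2-/- embryos, both below the controls. *Sema4g*, also a *Plxnb2* ligand, was listed at 5.30 and 5.56 FPKM in the Osr2RFP/+ and Foxf2+/- controls and at 4.43 and 5.25 FPKM in Foxf2-/- embryos, the second of these within 0.1 FPKM of a control. Neither gene overlapped between the groups in the values as deposited. After rescaling to a common median ratio the groups of *Sema4g* overlapped, at a log2 fold change of -0.0885. *Sema4f* was listed at 4.89 and 4.46 FPKM in the Osr2RFP/+ and Foxf2+/- controls and at 3.38 and 4.54 FPKM in Foxf2-/- embryos. *Sema4d*, the ligand of *Plxnb1*, was listed at 3.66 and 3.08 FPKM in the Osr2RFP/+ and Foxf2+/- controls and at 3.17 and 3.54 FPKM in Foxf2-/- embryos. The groups of both genes overlapped. Summed over the class, the level was 27.7 and 26.3 FPKM in control and 21.6 and 26.6 in Foxf2-/- embryos, with the first Foxf2-/- embryo the lowest.

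The class 5 pair, membrane semaphorins with thrombospondin repeats that can restrain neurites through A-type plexins, differed from each other. *Sema5b* (chr16:35541448-35664344, mm9) had 5.57 FPKM in the Osr2RFP/+ control, 6.84 in the Foxf2+/- control, and 9.03 and 11.4 in the Foxf2-/- embryos. The values were ordered by the number of *Foxf2* null alleles, with no overlap between the groups. The log2 fold change was 0.70 with an SE of 0.150, a 1.63-fold higher level with a 95% confidence interval of 1.28 to 2.08 (limma, unadjusted p = 0.0018, adjusted p = 0.172, n = 2 and 2). The mean of the Foxf2-/- embryos was 1.80-fold above the Osr2RFP/+ control and 1.47-fold above the Foxf2+/- control, just under the 1.5-fold threshold. Without the first Foxf2-/- embryo *Sema5b* was past that threshold against both controls, and its log2 fold change ranged from 0.54 to 0.87 over the fits that leave out 1 embryo. *Sema5a* (chr15:32174568-32626096), by contrast, was listed at 41.7 and 36.1 FPKM in the Osr2RFP/+ and Foxf2+/- controls and at 41.5 and 39.1 FPKM in Foxf2-/- embryos, inside the control range, at a log2 fold change of 0.05 and an SE of 0.0999 (limma adjusted p = 0.853).

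The order of *Sema5b*, and that of the receptor *Plxnc1* described below, over the 4 embryos was also that of the summed endothelial markers, 0.480, 0.936, 1.02 and 1.87 FPKM from the Osr2RFP/+ control to the second Foxf2-/- embryo. Of the single endothelial markers, *Kdr* and *Emcn* had this order and the others did not. The macrophage marker *Csf1r* had the same order, 1.91, 2.50, 2.56 and 2.97 FPKM. The other markers of macrophages and leukocytes, *Ptprc*, *C1qa*, *C1qb*, *Aif1* and *Cx3cr1*, did not, and the sum of that list overlapped between the groups. The red blood cell sum was lowest in the Osr2RFP/+ control and highest in the second Foxf2-/- embryo, but overlapped between the groups. Of its markers *Hbb-b1* alone had the order of *Sema5b*, at 6.97, 22.1, 33.0 and 67.5 FPKM, more than 1.5-fold above each control. Of the epithelial markers *Cldn6* alone had that order, at 0.561, 0.898, 1.05 and 1.17 FPKM. The part of any of these cells in the difference was not tested.

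The class 6 semaphorins are membrane ligands of A-type plexins that can also act as receptors. In the values as deposited, *Sema6d* was the one of 3 tested whose groups did not overlap. *Sema6d* (chr2:124436032-124493506), a *Plxna1* ligand known from heart development, had 10.3 FPKM in the Osr2RFP/+ control, 11.9 in the Foxf2+/- control, and 16.0 and 15.3 in the Foxf2-/- embryos. Both Foxf2-/- values lay above both controls and differed little from each other. The log2 fold change was 0.49 with an SE of 0.106, a 1.41-fold higher level with a 95% confidence interval of 1.18 to 1.67 (limma, unadjusted p = 0.0020, adjusted p = 0.183, n = 2 and 2), and the level was 1.51-fold above the Osr2RFP/+ control and 1.31-fold above the Foxf2+/- control.

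*Sema6a* (chr18:47404908-47528522), a ligand of *Plxna2* and *Plxna4*, was listed at 28.2 and 26.0 FPKM in the Osr2RFP/+ and Foxf2+/- controls and at 26.8 and 28.4 FPKM in Foxf2-/- embryos. The groups overlapped, at a log2 fold change of 0.03 and an SE of 0.0908 (limma adjusted p = 0.923). After rescaling to a common median ratio the groups of *Sema6a* did not overlap, at a log2 fold change of 0.1084. *Sema6c* was listed at 6.30 and 5.38 FPKM in the Osr2RFP/+ and Foxf2+/- controls and at 5.49 and 5.98 FPKM in Foxf2-/- embryos, within the control range.

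**Figure D2:**
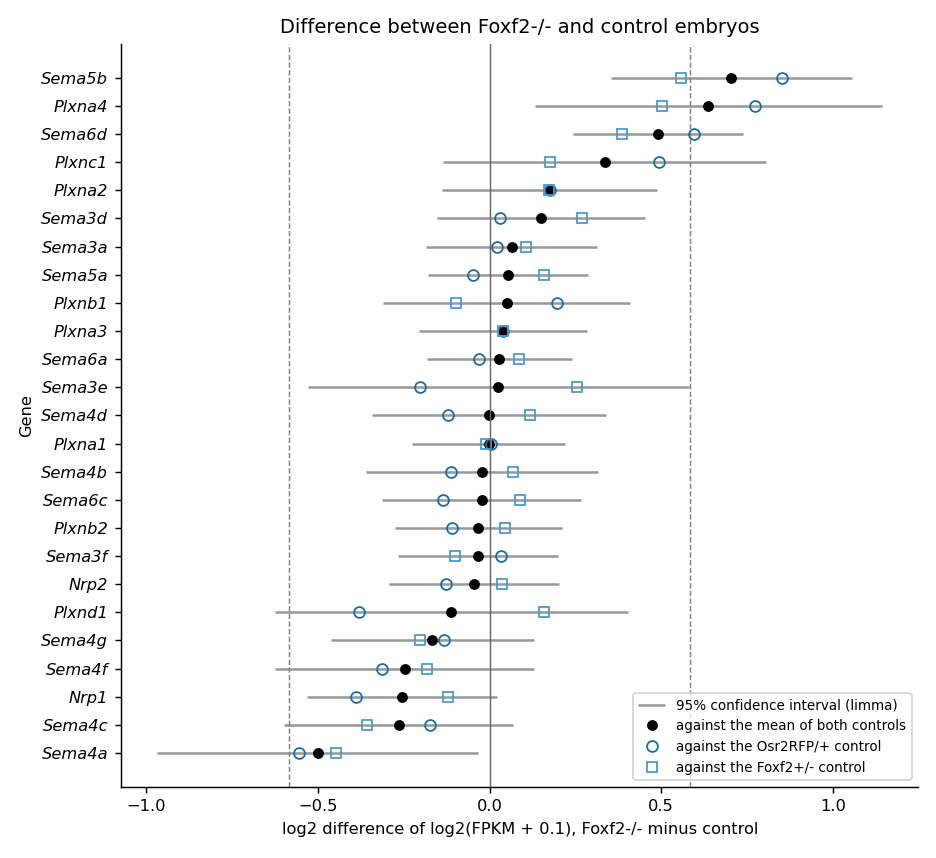
Difference in log2(FPKM + 0.1) between the 2 Foxf2-/- embryos and the controls for the 25 genes tested, ordered by the difference from the mean of both controls (filled points, with 95% confidence intervals from limma as grey lines), with the difference from each control as open symbols. The dashed lines mark 1.5-fold, and no gene has both open symbols beyond the same line.

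Among the receptors, *Plxna4* and *Plxnc1* had the largest differences, both at low levels. *Plxna4* (chr6:32094559-32538192), a receptor for *Sema3a* with neuropilin and for class 6 semaphorins without it, had 0.916 FPKM in the Osr2RFP/+ control, 1.13 in the Foxf2+/- control, and 1.64 in each Foxf2-/- embryo. The groups did not overlap, and the 2 Foxf2-/- embryos were closer to each other than the 2 controls were. The log2 fold change was 0.64 with an SE of 0.217, a 1.56-fold higher level with a 95% confidence interval of 1.10 to 2.21 (limma, unadjusted p = 0.0201, adjusted p = 0.322, n = 2 and 2). Against the Osr2RFP/+ control the level was 1.71-fold higher, and against the Foxf2+/- control it was 1.42-fold higher. *Plxnc1* (chr10:94253612-94407212), the receptor of *Sema7a*, had 1.55 and 1.95 FPKM in the Osr2RFP/+ and Foxf2+/- controls and 1.97 and 2.50 in the Foxf2-/- embryos. Its groups were separated by the distance from 1.95 to 1.97 FPKM, and the log2 fold change was 0.34 with an SE of 0.202 (limma adjusted p = 0.518). It was 0.18 without the Osr2RFP/+ control and 0.17 without the second Foxf2-/- embryo, and 0.49 and 0.50 without each of the others.

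The other A-type plexins, which carry class 3 signals together with neuropilins, were close to equal in all 4 embryos. *Plxna1*, the most abundant, was listed at 17.5 and 17.7 FPKM in the Osr2RFP/+ and Foxf2+/- controls and at 16.6 and 18.6 FPKM in Foxf2-/- embryos, at a log2 fold change of -0.0031 and an SE of 0.0961 (limma adjusted p = 0.993). After rescaling to a common median ratio both Foxf2-/- values of *Plxna1* lay just above the controls, at a log2 fold change of 0.0769. *Plxna2*, a receptor of *Sema6a*, was listed at 2.77 and 2.78 FPKM in the Osr2RFP/+ and Foxf2+/- controls and at 3.18 and 3.11 FPKM in Foxf2-/- embryos, 1.13-fold higher without overlap. *Plxna3*, which carries *Sema3f* signals, had 6.01 FPKM in both controls and 6.07 and 6.29 in the Foxf2-/- embryos, also without overlap but only 1.03-fold higher.

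The B-type and D-type plexins that were tested, receptors of class 4 and class 3 ligands, overlapped between the groups. *Plxnb2* (chr15:88985979-89011218), the most abundant receptor, was listed at 34.2 and 30.7 FPKM in the Osr2RFP/+ and Foxf2+/- controls and at 29.5 and 33.9 FPKM in Foxf2-/- embryos, at a log2 fold change of -0.03 and an SE of 0.104 (limma adjusted p = 0.920). *Plxnb1*, the receptor of *Sema4d*, was listed at 5.93 and 7.29 FPKM in the Osr2RFP/+ and Foxf2+/- controls and at 6.05 and 7.68 FPKM in Foxf2-/- embryos. *Plxnd1*, best known from endothelial cells, had 2.78 FPKM in the Osr2RFP/+ control, 1.88 in the Foxf2+/- control, and 1.90 and 2.34 in the Foxf2-/- embryos, inside the control range, at a log2 fold change of -0.11 and an SE of 0.221 (limma adjusted p = 0.867).

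**Figure D3:**
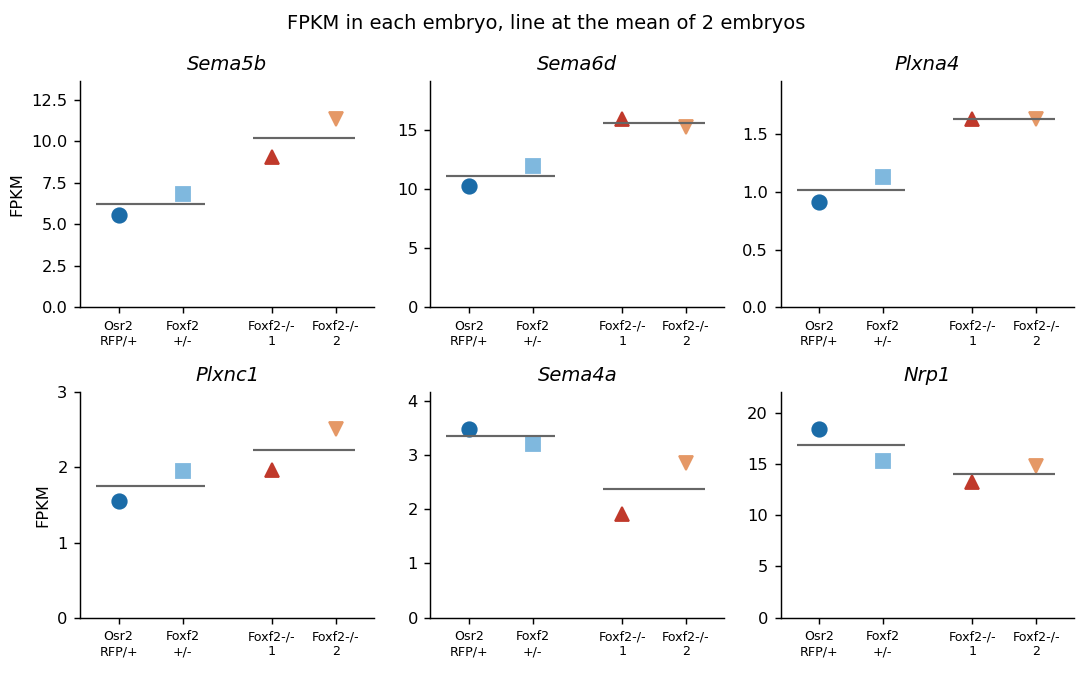
FPKM in each of the 4 embryos for *Sema5b*, *Sema6d*, *Plxna4*, *Plxnc1*, *Sema4a* and *Nrp1*, on linear axes that start at 0, with 1 point per embryo and a line at the mean of the 2 controls and of the 2 Foxf2-/- embryos. The Foxf2-/- points lie above both controls in the first 4 panels, at the closest 1.95 against 1.97 FPKM for *Plxnc1*, and below both controls in the last 2.

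*Nrp1* (chr8:130882973-131029375), which binds *Sema3a* and VEGF-A, had 18.4 FPKM in the Osr2RFP/+ control, 15.3 in the Foxf2+/- control, and 13.2 and 14.8 in the Foxf2-/- embryos. Both Foxf2-/- values were below both controls, and the log2 fold change was -0.26 with an SE of 0.119 (limma adjusted p = 0.417), and -0.12 without the Osr2RFP/+ control. *Nrp2* (chr1:62749891-62865266), which binds *Sema3f* and VEGF-C, was listed at 18.8 and 16.8 FPKM in the Osr2RFP/+ and Foxf2+/- controls and at 16.2 and 18.4 FPKM in Foxf2-/- embryos, at a log2 fold change of -0.05 and an SE of 0.106 (limma adjusted p = 0.890). The ratio of *Nrp1* to *Nrp2* was 0.975 in the Osr2RFP/+ control, 0.906 in the Foxf2+/- control, and 0.817 and 0.807 in the Foxf2-/- embryos.

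Counted over all 25 genes at the deposited scaling only, both Foxf2-/- embryos lay outside the control values for 11 genes, against 45.7% of all genes. Both lay above the controls for 7 genes, against 9.88% of all genes, and below them for 4, against 35.8%. The 7 were *Sema3d*, *Sema5b*, *Sema6d*, *Plxna2*, *Plxna3*, *Plxna4* and *Plxnc1*, and the 4 were *Sema4a*, *Sema4c*, *Sema4g* and *Nrp1*. The log2 difference also passed 0.32 in size for 5 of them, against 10.7% of all genes. The levels followed the number of *Foxf2* null alleles for 7 genes, against 28.7%. More than 1.5-fold separated the Foxf2-/- mean from the Osr2RFP/+ control for 3 genes, *Sema5b*, *Plxna4* and *Sema6d*, against 5.09% of all genes, and from the Foxf2+/- control for 0, against 2.58%. The controls differed from each other by more than 1.5-fold for 0 of the 25 genes and the Foxf2-/- embryos for 0, against 3.26% and 3.07%. Since both comparisons share the Foxf2-/- embryos, they are not independent of each other.

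Some members are divided among transcripts, and their makeup varied between embryos. Of the 31 genes, 24 have 1 transcript entry and 7 have more. For *Plxnb2*, the entry from the farther start had 18.0 FPKM in the Osr2RFP/+ control, 9.47 in the Foxf2+/- control, and 7.77 and 8.18 in the Foxf2-/- embryos, while the entry from the nearer start had 16.1, 21.2, 21.8 and 25.7 FPKM in the same order. The Osr2RFP/+ control stood apart from the other embryos with 52.8% of its *Plxnb2* level on the farther start, against 30.9% in the Foxf2+/- control and 26.3% and 24.1% in the Foxf2-/- embryos. The entries are 6497 and 6432 bases long and share their other end, and how well single-end reads divide them was not tested.

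*Nrp2* has 4 entries that end in the long last exon and 2 with a shorter locus, which encode proteins with different tails inside the cell. The long entries summed to 16.6 and 14.6 FPKM in control and 13.5 and 15.7 in Foxf2-/- embryos, and the shorter ones to 2.23 and 2.26 FPKM in control and 2.71 and 2.61 in Foxf2-/- embryos. The shorter form thus made up 11.9% and 13.4% of *Nrp2* in control and 16.7% and 14.2% in Foxf2-/- embryos. Among the long entries, those with the 51-base exon shown above held 72.4% and 59.3% in control and 61.1% and 88.1% in Foxf2-/- embryos, a wider spread within the Foxf2-/- embryos than between the groups. Entries with the 15-base stretch held 8.17% and 16.4% of all *Nrp2* in control and 8.07% and 19.3% in Foxf2-/- embryos.

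*Sema6d* was mostly of the forms with the 168-base exon, 97.0% in the Osr2RFP/+ control, 91.0% in the Foxf2+/- control, and 90.4% and 89.5% in the Foxf2-/- embryos. Those forms alone were at 10.0 and 10.9 FPKM in the Osr2RFP/+ and Foxf2+/- controls and at 14.5 and 13.7 FPKM in Foxf2-/- embryos. Most of the higher level of the gene lay in them, but not all of it. Forms with the 39-base stretch, which lack that exon, were at 0.307 and 1.07 FPKM in the Osr2RFP/+ and Foxf2+/- controls. They were at 1.18 and 1.61 FPKM in Foxf2-/- embryos. Forms with the 57-base exon held 30.4% and 36.7% of *Sema6d* in control and 35.4% and 39.8% in Foxf2-/- embryos, and forms with the 39-base stretch held 2.97%, 8.97%, 7.39% and 10.5% in the same order. The Osr2RFP/+ control was the lowest of the 4 embryos in both.

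*Sema4a* has 4 entries. The entry with the farthest start, 3046 bases long, held 77.4% and 45.9% of the level in the controls and nearly all of it in the first Foxf2-/- embryo and 48.2% in the second, and a 3125-base entry had 0.783 and 0.741 FPKM in the controls, near 0 in the first Foxf2-/- embryo, and 1.47 FPKM in the second. At these low levels the division of *Sema4a* moved between embryos of the same genotype. *Sema4f* was mostly of 1 entry, 4067 bases long, with 94.8% and 91.9% of the level in control and 93.7% and 94.8% in Foxf2-/- embryos. *Sema3b* and *Sema6b* also have more than 1 entry and were too low to divide.

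**Figure D4:**
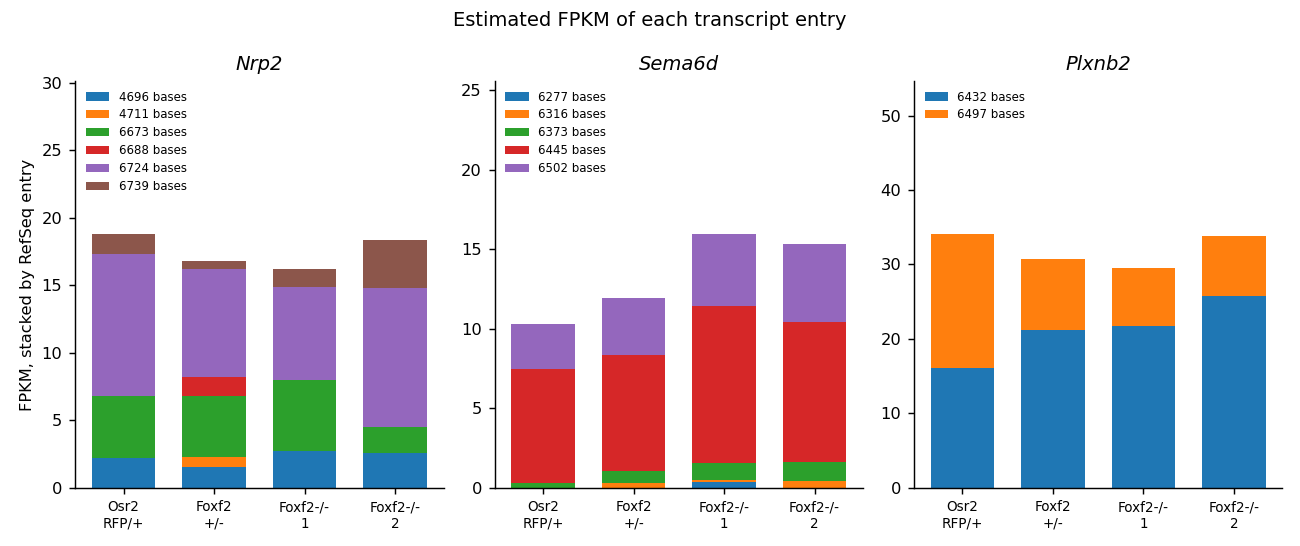
FPKM of the single transcript entries of *Nrp2*, *Sema6d* and *Plxnb2*, stacked to the gene's total in each of the 4 embryos, with entries named by their length in bases. The total of *Sema6d* is higher in both Foxf2-/- embryos, and the Osr2RFP/+ control has the largest share of the 6497-base *Plxnb2* entry, the one from the farther start.

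The other genes of the pathway were read from a list of 65 symbols, of which 64 are in the files and 50 were tested, with VEGF-D listed under its older symbol *Figf*. Measured against both controls, 1 gene was more than 1.5-fold higher and 1 more than 1.5-fold lower, against 0.71% and 0.665% of all genes. None was called by limma, and 4 had an unadjusted p under 0.05, against 13.1% of all genes. The median log2 fold change over the 50 genes was -0.01.

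Among other ligands of neuropilins, 1 of 5 genes tested, *Vegfc*, the growth factor of lymphatic vessels and a ligand of *Nrp2*, was lower against both controls. *Vegfc* had 6.95 FPKM in the Osr2RFP/+ control, 5.37 in the Foxf2+/- control, and 3.30 and 2.87 in the Foxf2-/- embryos. The groups did not overlap, and the log2 fold change was -0.97 with an SE of 0.157 (limma, unadjusted p = 0.00035, adjusted p = 0.109, n = 2 and 2). The Foxf2-/- mean was 0.451 times the Osr2RFP/+ control and 0.580 times the Foxf2+/- control. *Vegfa*, the main ligand of *Nrp1* in vessels, was listed at 13.1 and 11.95 FPKM in the Osr2RFP/+ and Foxf2+/- controls and at 10.6 and 10.9 FPKM in Foxf2-/- embryos, with a log2 fold change of -0.21, and *Vegfb* was listed at 39.4 and 37.3 FPKM in the Osr2RFP/+ and Foxf2+/- controls and at 39.04 and 42.6 FPKM in Foxf2-/- embryos.

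Of the 15 co-receptors and other receptors, 4 were tested and none met either criterion. The VEGF receptors *Kdr*, *Flt1* and *Flt4* were not tested, and *Kdr* was listed at 0.104 and 0.132 FPKM in the Osr2RFP/+ and Foxf2+/- controls and at 0.219 and 0.299 FPKM in Foxf2-/- embryos.

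Of the 36 effectors, which carry the signal to the cytoskeleton inside the cell, 33 were tested and 1 was higher against both controls. This was *Dpysl5*, a collapsin response mediator protein, with 0.645 FPKM in the Osr2RFP/+ control, 0.851 in the Foxf2+/- control, and 1.79 and 1.43 in the Foxf2-/- embryos. The groups did not overlap, and the log2 fold change was 1.01 with an SE of 0.256 (limma, unadjusted p = 0.0048, adjusted p = 0.244, n = 2 and 2). With a pseudocount of 1 in place of 0.1 the log2 fold change was 0.58, and *Dpysl5* was no longer past 1.5-fold against both controls. *Dpysl3*, of the same family, was listed at 9.56 and 8.30 FPKM in the Osr2RFP/+ and Foxf2+/- controls and at 12.1 and 11.7 FPKM in Foxf2-/- embryos, a log2 difference of 0.42 (limma adjusted p = 0.249) that was 0.0464 when the entry with the highest mean level was used alone (limma adjusted p = 0.920). *Mical2*, an enzyme of a family that oxidizes actin downstream of plexins, was listed at 1.37 and 1.29 FPKM in the Osr2RFP/+ and Foxf2+/- controls and at 1.90 and 1.75 FPKM in Foxf2-/- embryos, a log2 difference of 0.43 (limma adjusted p = 0.392). *Dpysl3* and *Dpysl5* are also neuronal genes. The summed markers of neurons and Schwann cells, 3.64 and 7.51 FPKM in control and 6.11 and 6.52 in Foxf2-/- embryos, overlapped between the groups. One of them, *Sox10*, a marker of Schwann and other neural crest cells, did not overlap, at 0.142 and 0.156 FPKM in control and 0.469 and 0.352 FPKM in Foxf2-/- embryos. *Dpysl5*, *Sema6d* and *Plxna4* had the order of *Sox10* over the 4 embryos, though the Foxf2-/- values of *Plxna4* were nearly equal. The other markers of that list did not have it. The part of these cells in any of these values was not tested.

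All 8 enzymes that cleave semaphorins were tested, and none met either criterion. The sheddase *Adam10* was listed at 7.89 and 7.48 FPKM in the Osr2RFP/+ and Foxf2+/- controls and at 5.82 and 6.23 FPKM in Foxf2-/- embryos, without overlap, and a log2 difference of -0.35 (limma, unadjusted p = 0.0125, adjusted p = 0.293).

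**Figure D5:**
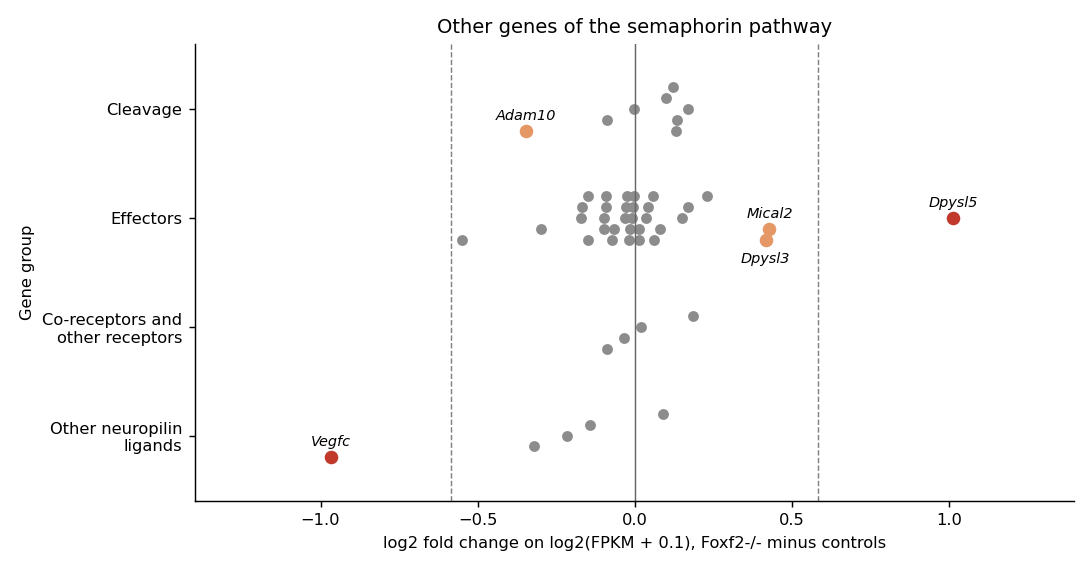
Log2 fold change of the 50 other pathway genes tested, Foxf2-/- against control embryos on the log2(FPKM + 0.1) scale, 1 point per gene in 4 groups, with the vertical offsets only separating points. Dashed lines mark 1.5-fold. *Vegfc* and *Dpysl5* (red) differed by more than 1.5-fold from each control, and the genes in orange, *Adam10*, *Dpysl3* and *Mical2*, did not overlap between the groups and had a log2 difference of more than 0.32 in size.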

How the data were processed

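RNA of sorted palatal mesenchyme cells from 4 E13.5 embryos was made into Nextera libraries and sequenced as single-end reads on an Illumina HiSeq instrument. The authors aligned the reads with Tophat and Bowtie (0.12.7) to mm9 and deposited, per RefSeq transcript, FPKM values and a coverage signal in tables of the Cufflinks layout, with 28107 entries each. The version of the quantification program is not given in the sources used here. Groups follow the genotype in the labels. Read counts are not in these tables and depth is unknown. FPKM did not resolve into whole reads, and the ratio of coverage to FPKM put the libraries between 1.0 and 1.19 times the shallowest in depth. File starts were taken as counted from 0 and printed plus 1, since 30 of the 47 entries then match an annotated transcript start and 0 do otherwise.

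For this work, entries of at least 200 bases with an estimate in every embryo were summed by symbol, and genes with a mean FPKM of at least 1 were tested on log2(FPKM + 0.1) with limma 3.58.1 with a variance trend (R 4.3.3), both Foxf2-/- embryos against both controls, with Benjamini-Hochberg adjustment over 11128 genes. Fold changes on this scale understate those of low genes. A call is an adjusted p under 0.05 with more than 1.5-fold change. A second criterion, a mean more than 1.5-fold apart from each control in the same direction, was used here without a test. The study's methods pair a 1.5-fold cutoff with the Audic Claverie test and Benjamini-Hochberg correction, which was not run here. An exact permutation test of 2 against 2 embryos cannot go below p = 0.333 and was not used. On simulated data the fit called 8 of 50 genes planted at 1.5-fold, 16 of 50 at 2-fold and 38 of 50 at 3-fold. Genes not called here may therefore still have changed by 1.5-fold or 2-fold. With no planted change the fit called 0 genes, and 65 of 11128 met the second criterion. With the planted changes the fit also called 4 genes that had none. The simulated noise was normal and independent between genes, without a shift of whole libraries. The median log2 fold change of the real data was -0.081, so the number of false calls in them is not known from the simulation. The genes, the pathway list and the naming rule (all 31 genes, with statistics for those without overlap and with a log2 difference over 0.32 and for the most abundant of each class) were chosen with earlier results of these data known.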

Additional observations from a re-analysis of the deposited data

How the results depend on the processing

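No semaphorin, plexin, neuropilin or other pathway gene was called by limma under any of the 15 alternatives tried. No paired analysis was possible because the labels number only the Foxf2-/- embryos, and each control group is 1 embryo. When a control is left out, the criterion against both controls becomes a comparison with the remaining control alone, which is easier to meet. Against both controls, *Sema5b* made the count of the 25 genes 1 under median-ratio scaling, and as embryos were left out in turn the count ran from 0 to 3. It was 3 without the Foxf2+/- control (*Sema5b*, *Plxna4*, *Sema6d*), 1 without the first Foxf2-/- embryo (*Sema5b*) and 1 without the second (*Sema4a*). The other pathway genes, 2 at first, counted 1 with a pseudocount of 1, 1 with at least 5 FPKM asked of 1 embryo, 4 with no minimum and 0 at 2-fold, and 2 to 4 as embryos were left out, with 4 without the second Foxf2-/- embryo. Over all genes the criterion's count of 153 was 65 with a pseudocount of 1, 47 with at least 5 FPKM asked of 1 embryo, 638 with no minimum, 291 with all entries, 274 with the highest entry only, 33 at 2-fold and 210 to 566 as embryos were left out, 566 without the Foxf2+/- control. The limma count of 7 was 13 with a pseudocount of 1, 13 under median-ratio scaling, 0 with no minimum, 27 with all entries, 1 with the highest entry only, 2 without a variance trend, 19 with separate control means, 18 with a linear term in null alleles and 7 to 38 as embryos were left out, 38 without the Foxf2+/- control.

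Of 408 gene values under alternatives, 371 kept their sign and 37, in 13 genes, changed sign, none of them *Sema5b*, *Sema6d*, *Plxna4*, *Plxnc1* or *Sema4a*. Many of the 371 could not have changed sign. Dropping the variance trend, fitting separate control means or changing the minimum level leaves a gene's log2 fold change as it was. The log2 fold change turned to 0.0343 for *Nrp2*, 0.0769 for *Plxna1*, 0.0467 for *Plxnb2*, 0.0457 for *Sema3f*, 0.0568 for *Sema4b*, 0.0764 for *Sema4d* and 0.0562 for *Sema6c* under median-ratio scaling, which moved the median of all genes by 0.079. The linear term in null alleles gave 0.0019 for *Plxna1*, -0.14 for *Sema3e*, 0.0116 for *Sema3f*, -0.0163 for *Sema5a* and -0.0112 for *Sema6a*, and the highest entry alone gave 0.35 for *Plxnb2*. As embryos were left out, the value ranged from -0.13 to 0.043 for *Nrp2*, -0.0842 to 0.078 for *Plxna1*, -0.12 to 0.22 for *Plxnb1*, -0.13 to 0.0651 for *Plxnb2*, -0.38 to 0.16 for *Plxnd1*, -0.0443 to 0.17 for *Sema3a*, -0.20 to 0.26 for *Sema3e*, -0.10 to 0.033 for *Sema3f*, -0.20 to 0.16 for *Sema4b*, -0.12 to 0.12 for *Sema4d*, -0.0497 to 0.16 for *Sema5a*, -0.0295 to 0.086 for *Sema6a* and -0.13 to 0.089 for *Sema6c*. The causes were not tested. The tables hold no read counts, so the counting error of each value is unknown.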
